A study of Homo sapiens with 12 samples.

Results

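The genes described here encode complement proteins and the regulators that restrain them: C1R, C1S, C3, CFB, CFI, SERPING1, CD46, CD55 and CD59. They were picked by symbol as 9 of the 60591 genes in the deposited count table, and all 9 were among the 19108 genes that passed the expression filter and were tested. CFI, CFB and SERPING1 had few reads, and CFI passed the filter although no read was counted for it in PC9 cells at T0. The cells were PC9 and H1650, established non-small cell lung cancer lines that carry the same activating deletion in EGFR, and all libraries are labelled wild-type for genotype. T0 cells, labelled with 0.1% DMSO and 0 h, were taken when the drugs were added, and treated cells had spent 36 h either in erlotinib at 10 μM or in osimertinib at 0.1 μM, both inhibitors of the EGFR kinase. With 2 replicates in every one of the 6 groups, 12 libraries were compared. The study asked whether drug-induced expression changes account for the different lethality of the inhibitors in these lines.

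Within a line, the T0 libraries served as the reference for both drugs, and no vehicle library of 36 h was analysed here, so drug and time in culture cannot be told apart. A difference between the lines is one between PC9 and H1650 only. The libraries held between 17961765 and 26346187 reads assigned to genes. Mitochondrial genes took between 4.36% and 5.36% of the reads at T0 and between 5.77% and 7.20% after drug, and their part in the results was not tested. Levels are given as normalized CPM (a gene's reads relative to the library total, scaled by edgeR's TMM factors). A count of 0 allows up to 3 reads, or between 0.116 and 0.168 normalized CPM depending on the library, and this limit covers counting error only. The labels do not say whether replicates came from separate cultures, and the study describes them as biological replicates. The p-values rest on the spread between the 2 samples of a group, pooled over all 6 groups and moderated across genes. The RNA was bulk, so fewer cells of a type and less RNA per cell cannot be told apart.

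Complement is a cascade of blood and tissue proteins that marks surfaces for removal and can pierce membranes. In the classical pathway, the serine proteases C1r and C1s cleave the components that build a C3 convertase. In the alternative pathway, factor B (CFB) supplies the protease of the convertase, and cleavage of C3 is the step on which all pathways meet. Cells protect themselves with soluble inhibitors, such as the C1 inhibitor (SERPING1) and factor I (CFI), and with membrane regulators: CD46 is a cofactor for factor I, CD55 speeds the decay of convertases, and CD59 blocks assembly of the membrane attack complex. The liver makes most of the plasma proteins, while epithelial cells, lung cancer cells among them, also transcribe complement genes, many of which respond to interferons and inflammatory cytokines.

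Promoter sequence was matched for 6 of the 9 genes in the RefSeq table of GRCh38.p14 (CFB, C1R, CFI, CD46, CD55 and CD59, with 11 start sites between them), and C3, C1S and SERPING1 had no entry. In the 250 bases before each start, 4 motifs linked to cytokine and growth factor signalling were searched on both strands: the interferon-stimulated response element (ISRE) core GAAANNGAA, the STAT-binding GAS motif TTCNNNGAA, the kappaB core GGANTTTCC and the AP-1 motif TGANTCA, where N is any base. These motifs were present in 6.88%, 6.57%, 1.45% and 6.57% of the 35116 promoters of the same length. Matches were found for CFB, C1R and CD59 only. The 30 bases around each are shown 5′ to 3′ on the strand of the gene. Capitals mark the match.
CFB, ISRE core: cttctgcagtTTCTGTTTCcttgactggca
CFB, GAS: cgcttggatgTTCCGGGAAagtgatgtggg
C1R, GAS: gccagtcctaTTCCTGGAAggggaggggag
CD59, GAS: ccacccggccTTCTCAGAAcctgggccagg
CD59, AP-1: cccctttggtcTGATTCActtagtgctgtg
CD59, AP-1: cagtggctataTGAGTCAatttgctcatat
The CFB stretches lie at chr6:31945946-31945975 and chr6:31945993-31946022 (plus strand), and their matches cover bases -139 to -131 and -92 to -84 from the RefSeq start, where GENCODE 29 places untranslated sequence of longer CFB transcripts. The C1R stretch lies at chr12:7091960-7091989 (minus strand), its match covers bases -86 to -78 from the inner of its RefSeq starts, and GENCODE 29 has an exon of a noncoding C1R transcript there. The CD59 GAS stretch lies at chr11:33736588-33736617 (minus strand), outside annotated exons, and its match covers bases -128 to -120 from the outermost start. The AP-1 stretches of CD59 lie at chr11:33722826-33722855 and chr11:33722732-33722761 in an intron, with matches at bases -117 to -111 and -23 to -17 from an inner start. A match is a run of letters and not a measured binding site, and no binding was measured.

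The libraries were checked against marker genes of the labelled cell type and of other sources of complement RNA. The 6 epithelial markers (EPCAM, CDH1, KRT7, KRT8, KRT18 and KRT19) summed to between 6162 and 13298 normalized CPM across the libraries. Of 6 hepatocyte markers, ALB, APOA1, APOB, FGB and TTR were at or under 3 reads in every library, and SERPINA1 made up most of the sum of 23.9 to 32.6 normalized CPM in H1650, against at most 0.151 in PC9. Of 6 macrophage markers, LYZ and CD163 were at or under 3 reads in every library, and the sum was 1.76 to 2.32 normalized CPM in PC9 at T0, 3.24 to 3.76 with erlotinib and 5.55 to 5.89 with osimertinib, most of it CSF1R. In H1650 this sum was 54.6 to 59.2 at T0, 21.4 to 22.2 with erlotinib and 26.9 to 29.2 with osimertinib. Only 2 of the 6 macrophage markers passed the expression filter, so the sum rests on few genes. Of 6 fibroblast markers, COL1A2, DCN and LUM were at or under 3 reads in every library, and the sum in PC9 was 18.4 to 21.1 normalized CPM at T0, 20.8 to 24.7 with erlotinib and 37.8 to 45.9 with osimertinib, and in H1650 24.3 to 24.9, 16.9 to 18.4 and 32.6 to 34.7. The 6 endothelial markers summed to at most 6.87 normalized CPM in any library. The part of these sums in the results was not tested.

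In PC9 cells, the proteases C1R and C1S, factor B and CD55 rose with both drugs, by 3.22-fold to 12.1-fold, while CD59 fell and CD46 did not pass the test. C3 fell with erlotinib and was not called with osimertinib. In H1650 cells C1S was the only member that passed the test with both drugs, and C3 rose with osimertinib. In all, 6 of the 9 genes were called higher and 2 lower with erlotinib in PC9, where 32.7% of all tested genes rose and 29.1% fell. CFI is among the 6 on only 2 and 4 reads, below the level that a count of 0 at T0 allows, and without it 5 rose. With osimertinib in PC9, 6 rose and 1 fell, beside 32.7% and 28.7% of all tested genes. With erlotinib in H1650, 2 rose and 1 fell, beside 18.0% and 18.5%, and with osimertinib 5 rose and none fell, beside 17.8% and 17.9%. The median log2 fold change of the 9 genes was 1.85 with erlotinib and 2.99 with osimertinib in PC9 (0.07 and 0.06 over all tested genes), and 0.45 and 0.78 in H1650 (0.01 and 0.00 over all). The PC9 medians lean on CFI, whose fitted change depends on the prior count, and over the 8 other genes they were 1.77 and 2.38 (1.81 for osimertinib with CFI at its lower bound). Calls were made where the edgeR quasi-likelihood p, adjusted by Benjamini-Hochberg over all tested genes, was below 0.05.

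**Figure D1:**
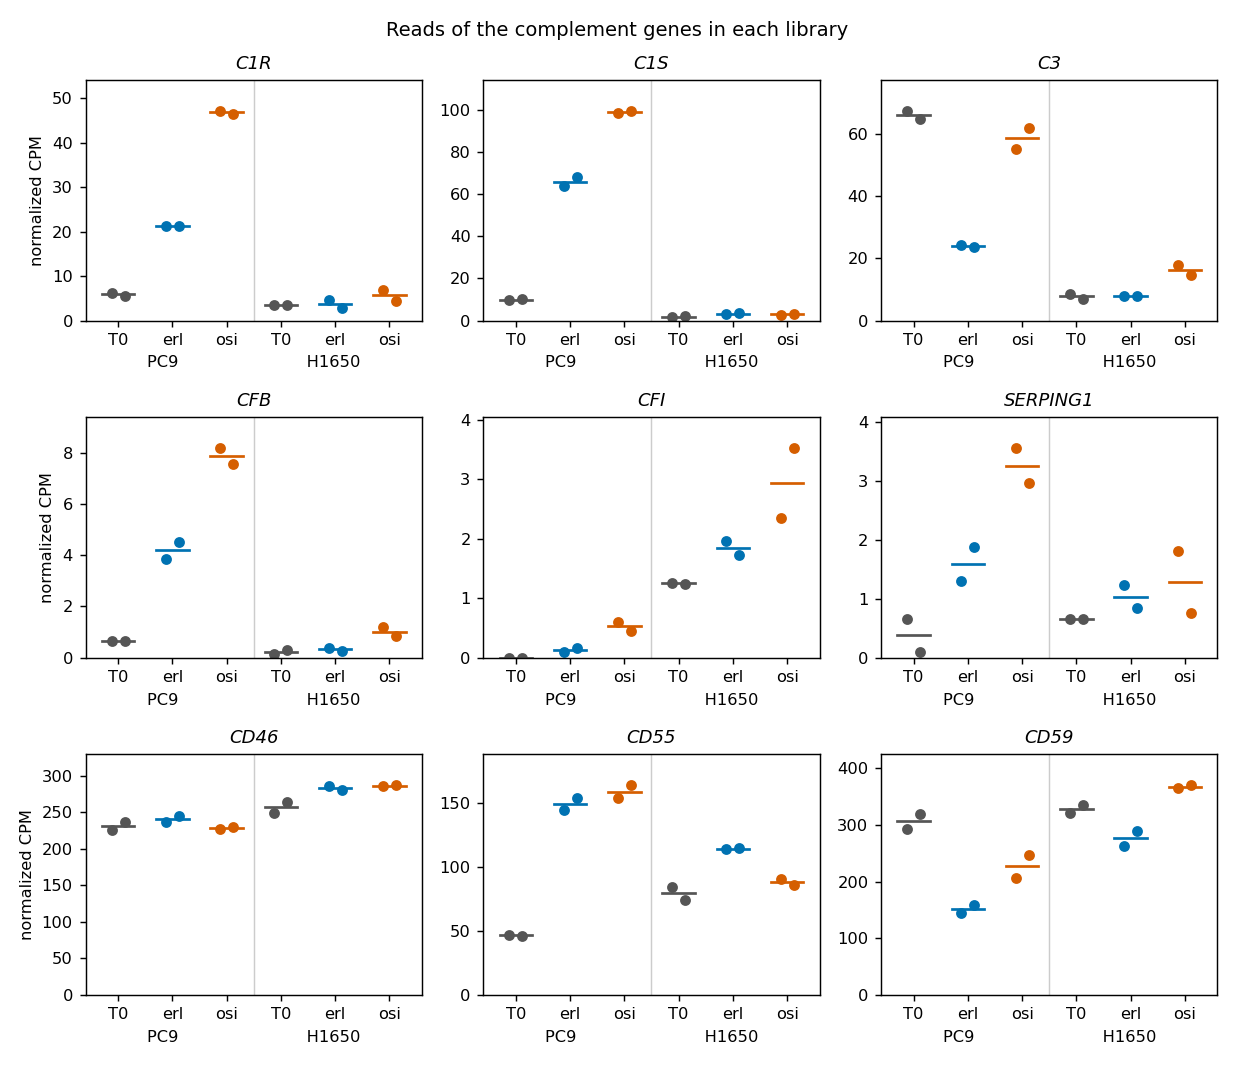
Normalized CPM (linear axes from 0) of each gene in the 12 libraries, with 1 point per library and a bar at the mean of the 2 replicates of each group (erl, erlotinib, osi, osimertinib). In PC9, the C1R and C1S points of the treated groups lie above both T0 points and those of osimertinib above those of erlotinib, and the CD46 points of all groups lie between 224.8 and 286.5.

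C1R, the protease that activates C1s, lies at chr12:7080199-7092607 (GENCODE 29 on GRCh38, the build named in the submitters' processing notes). Its level in the 2 PC9 libraries was 6.30 and 5.48 normalized CPM at T0, 21.3 and 21.2 with erlotinib, and 47.1 and 46.6 with osimertinib. The groups did not overlap, and the osimertinib libraries were the highest of all 12. C1R rose by a log2 fold change of 1.85 ± 0.17 (SE) with erlotinib (edgeR adjusted p = 1.8e-10) and of 2.99 ± 0.17 with osimertinib (edgeR adjusted p = 3.7e-15). In H1650 the levels were 3.59 and 3.47 at T0, 4.70 and 2.75 with erlotinib, and 6.92 and 4.50 with osimertinib. The H1650 erlotinib libraries lay on either side of the T0 pair, and only the osimertinib libraries were both above it. C1R was not called with erlotinib in H1650 (log2 fold change 0.06, 95% interval -0.39 to 0.52) and rose by 0.69 ± 0.21 with osimertinib (edgeR adjusted p = 0.00939). The latter call was lost without H1650 osimertinib replicate 1 (0.35) and without H1650 T0 replicate 2 (0.66). Exons of C1R overlap on the same strand those of C1RL, a neighbour of related sequence that rose in all 4 drug comparisons, so the split of reads between them is uncertain.

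C1S, the protease that C1r activates and that cleaves C4 and C2, lies at chr12:6988259-7071032. It was counted at 9.83 and 10.2 normalized CPM at T0 in PC9, 64.1 and 68.1 with erlotinib, and 98.6 and 99.6 with osimertinib. All treated libraries were above both T0 libraries by a wide margin relative to the spread of replicates. The log2 fold changes were 2.72 ± 0.11 with erlotinib (edgeR adjusted p = 4.4e-18) and 3.31 ± 0.11 with osimertinib (edgeR adjusted p = 5.53e-20), or 6.61-fold and 9.91-fold. In H1650, C1S was low throughout, at 1.45 and 2.12 at T0, 2.89 and 3.59 with erlotinib, and 2.86 and 3.34 with osimertinib. Here too no treated library was as low as the T0 libraries. C1S rose in H1650 by 0.84 ± 0.20 with erlotinib (edgeR adjusted p = 0.00159) and by 0.78 ± 0.20 with osimertinib (edgeR adjusted p = 0.00326). Single libraries decided these calls: the erlotinib call was lost without H1650 erlotinib replicate 2 (0.67), and the osimertinib call without H1650 T0 replicate 1 (0.55) or H1650 osimertinib replicate 2 (0.66). Exons of C1S overlap those of EMG1 on the same strand, so the split of reads between them is uncertain. EMG1 fell in all of these comparisons, by 1.2 and 1.30 (log2) in PC9 with erlotinib and osimertinib and by 0.42 and 0.60 in H1650.

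C1r and C1s act as a pair, and the ratio of their levels per kb of gene length was not constant. C1S stood at 1.40 and 1.67 times C1R in PC9 at T0, 2.70 and 2.88 times with erlotinib, and 1.88 and 1.92 times with osimertinib. These groups did not overlap, and the erlotinib libraries were the highest. In H1650 the ratio ran from 0.362 to 1.17 over the 6 libraries, so C1S was below C1R in all but H1650 erlotinib replicate 2. The ratio was below the lowest PC9 value in every H1650 library, and no test was made of it.

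C3, the central component whose cleavage tags surfaces, lies at chr19:6677704-6730562. Its level in PC9 was 67.5 and 65.0 normalized CPM at T0, 24.2 and 23.7 with erlotinib, and 55.2 and 62.2 with osimertinib. The erlotinib libraries stood far below the others, and the osimertinib libraries came close to T0 without overlapping it. With erlotinib C3 fell by 1.47 ± 0.10 on the log2 scale (edgeR adjusted p = 8.74e-13), a reduction of 63.8%. With osimertinib it was not called (log2 fold change -0.18, 95% interval -0.38 to 0.03, edgeR adjusted p = 0.128), although it passed without a filter on low counts (-0.26) and in a fit of the PC9 libraries alone (-0.24). In H1650 the levels were 8.63 and 7.06 at T0, 8.0 and 7.87 with erlotinib, and 17.9 and 14.7 with osimertinib. The erlotinib libraries lay within the T0 range, while both osimertinib libraries lay above it. C3 was not called with erlotinib in H1650 (0.02, 95% interval -0.26 to 0.31) and rose by 1.06 ± 0.13 with osimertinib (edgeR adjusted p = 1.56e-07). 

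CFB, the protease subunit of the alternative pathway convertase, lies at chr6:31945650-31952084, and the ISRE core and GAS matches shown above are in its promoter. It was scarce at T0 in PC9, with 0.655 and 0.642 normalized CPM, and reached 3.85 and 4.53 with erlotinib and 8.19 and 7.57 with osimertinib. The PC9 groups were well apart and in the same order as those of C1R and C1S. CFB rose by 2.68 ± 0.33 (log2) with erlotinib (edgeR adjusted p = 4.83e-08) and by 3.59 ± 0.32 with osimertinib (edgeR adjusted p = 8.15e-11). In H1650 it had 3 and 8 reads at T0, 7 and 6 with erlotinib, and 25 and 19 with osimertinib. Only the osimertinib libraries of H1650 were above the T0 libraries. CFB rose by 2.11 ± 0.47 with osimertinib in H1650 (edgeR adjusted p = 0.000758) and was not called with erlotinib (0.45, 95% interval -0.78 to 1.69). Exons of C2 and of AL645922.1 overlap CFB on the same strand. C2 had at most 11 reads in any library and AL645922.1 had none, and the split of reads between these genes is uncertain.

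CFI, the serine protease that cuts C3b and C4b with the help of cofactors, lies at chr4:109740694-109802179 and was the scarcest of the 9 genes in PC9. No read was counted in either PC9 T0 library, 2 and 4 reads were counted with erlotinib, and 13 and 8 with osimertinib. At 0.525 normalized CPM on average, the osimertinib libraries were at least 3.51-fold higher than T0, computed against 3 reads per library (edgeR adjusted p = 9.47e-05). This bound allows for counting error at T0 only, and not for that of the osimertinib libraries. The erlotinib libraries averaged 0.123 normalized CPM, below the 3-read level of T0, and no fold is given for them. The erlotinib call (edgeR adjusted p = 0.0263) was lost without PC9 T0 replicate 1, PC9 T0 replicate 2 or PC9 erlotinib replicate 2. In H1650, CFI was present at T0, with 1.26 and 1.24 normalized CPM, and was counted at 1.96 and 1.72 with erlotinib and 2.34 and 3.52 with osimertinib. The groups did not overlap in H1650, in the order T0, erlotinib, osimertinib. CFI rose by 1.23 ± 0.36 (log2) with osimertinib in H1650 (edgeR adjusted p = 0.00873) and was not called with erlotinib (0.56, 95% interval -0.22 to 1.34). The osimertinib call was lost with DESeq2 (1.22), without H1650 T0 replicate 2 (1.22) and without H1650 osimertinib replicate 2 (0.91). Exons of AC126283.2, which had no read in any library, overlap CFI on the same strand, so the split of reads is uncertain here too.

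SERPING1, which encodes the inhibitor of C1r and C1s, lies at chr11:57597387-57614853. It had 13 and 2 reads in PC9 at T0, 29 and 48 with erlotinib, and 77 and 53 with osimertinib. The T0 replicates were far from each other, but neither reached the treated libraries. In normalized CPM these were 0.655 and 0.0987 at T0, 1.30 and 1.87 with erlotinib, and 3.56 and 2.97 with osimertinib. SERPING1 rose by 2.07 ± 0.54 (log2) with erlotinib (edgeR adjusted p = 0.00163) and by 3.11 ± 0.51 with osimertinib (edgeR adjusted p = 6.17e-06). The T0 libraries set the size of both changes: without PC9 T0 replicate 1 they were 3.93 and 4.97, and without PC9 T0 replicate 2, the library with 2 reads, they were 1.27, no longer called, and 2.31. In H1650, SERPING1 was at 0.653 and 0.656 normalized CPM at T0, 1.24 and 0.838 with erlotinib, and 1.81 and 0.757 with osimertinib, and was called with neither drug (0.65, 95% interval -0.41 to 1.71, and 0.96, 95% interval -0.06 to 1.98). The osimertinib change passed the test without H1650 osimertinib replicate 2 (1.46).

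CD55, or decay-accelerating factor, lies at chr1:207321376-207386804. Its level in PC9 was 46.5 and 46.3 normalized CPM at T0, 144.7 and 153.8 with erlotinib, and 154.2 and 163.8 with osimertinib. PC9 at T0 was the lowest of the 6 groups and PC9 under the drugs the highest. CD55 rose by 1.69 ± 0.08 (log2) with erlotinib (edgeR adjusted p = 1.35e-16) and by 1.78 ± 0.08 with osimertinib (edgeR adjusted p = 4e-17), or 3.22-fold and 3.43-fold. In H1650 the values were 84.2 and 74.5 at T0, 113.7 and 114.7 with erlotinib, and 90.9 and 86.0 with osimertinib. Erlotinib gave the highest H1650 levels, and the osimertinib libraries lay just above T0. CD55 rose by 0.53 ± 0.08 with erlotinib in H1650 (edgeR adjusted p = 3.65e-06) and was not called with osimertinib (0.16, 95% interval -0.0014 to 0.32, edgeR adjusted p = 0.119).

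CD59, the inhibitor of the membrane attack complex, lies at chr11:33703010-33736491 and went the other way. It was counted in PC9 at 293.3 and 319.0 normalized CPM at T0, 144.0 and 159.4 with erlotinib, and 206.6 and 246.9 with osimertinib. The groups were separate, with erlotinib the lowest. CD59 fell by 1.01 ± 0.08 (log2) with erlotinib (edgeR adjusted p = 1.53e-11), a reduction of 50.4%, and by 0.43 ± 0.08 with osimertinib (edgeR adjusted p = 3.71e-05), a reduction of 26%. In H1650 the levels were 321.0 and 334.8 at T0, 262.6 and 289.9 with erlotinib, and 364.7 and 369.7 with osimertinib. Erlotinib libraries lay below T0 and osimertinib libraries above it. CD59 fell by 0.25 ± 0.08 with erlotinib in H1650 (edgeR adjusted p = 0.0169), a call lost without H1650 T0 replicate 2 (-0.22) or H1650 erlotinib replicate 1 (-0.17), and was not called with osimertinib (0.16, 95% interval -0.0020 to 0.33). With a replicate term added to the fit, the osimertinib change of CD59 in H1650 passed the test (0.16). Exons of AL049629.2, which had at most 7 reads in any library, overlap CD59 on the same strand, so the split of reads is uncertain.

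CD46, the membrane cofactor for factor I, lies at chr1:207752057-207795513. Its group means lay between 228.7 and 285.9 normalized CPM. In PC9 the libraries stood at 224.8 and 236.3 at T0, 236.5 and 244.8 with erlotinib, and 227.5 and 229.9 with osimertinib. In H1650 they stood at 249.3 and 263.5, 286.2 and 279.6, and 285.3 and 286.5, with both treated pairs above the T0 pair. CD46 was called in none of the 4 drug comparisons. The 95% intervals of its log2 fold change were -0.08 to 0.20 and -0.15 to 0.13 in PC9 with erlotinib and osimertinib, and 0.0038 to 0.28 and 0.02 to 0.29 in H1650. It passed the test under upper quartile normalization in PC9 with erlotinib (0.15) and in H1650 with osimertinib (0.17), and with at least 10 counts required in each library in H1650 with both drugs (0.16 and 0.18). With a replicate term added to the fit, CD46 also passed in H1650 with erlotinib (0.14) and osimertinib (0.16).

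**Figure D2:**
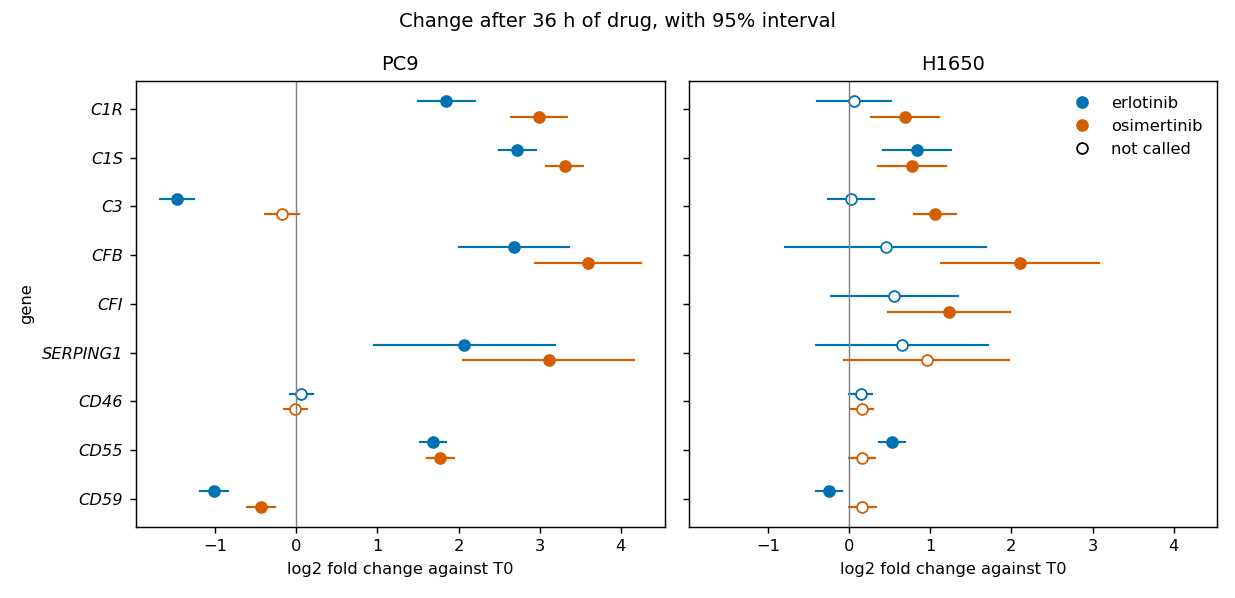
Log2 fold change against T0 of the same line (x axis) for each gene (y axis), with 95% intervals as lines, filled points for genes called and open points for genes not called. CFI is not drawn in PC9, where it had no read at T0. In PC9 the points of C1R, C1S, CFB, SERPING1 and CD55 lie between 1.69 and 3.59, and in H1650 most intervals reach or approach 0.

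Per kb of gene length, as given in the deposited table, CD46 and CD59 were the most abundant members at T0. In PC9 at T0 the levels per kb were 29 ± 1.72 for CD59, 26.5 ± 0.93 for CD46 and 8.07 ± 0.03 for CD55 (SD, n = 2), and C3, at 7.98 ± 0.22, overlapped CD55. With erlotinib CD55 reached 25.9 ± 1.12 and CD59 14.4 ± 1.03, so their order was turned round, and with osimertinib they stood at 27.6 ± 1.17 and 21.5 ± 2.70. C1S was at 1.55 ± 0.04 at T0, 10.2 ± 0.44 with erlotinib and 15.3 ± 0.11 with osimertinib, above C3 in both treated groups (2.89 ± 0.05 and 7.08 ± 0.60). In H1650, CD46 and CD59 were between 26.2 and 34.8 and CD55 between 13.8 and 19.9 in every group, and the remaining 6 genes stayed at or under 1.96 per kb.

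The order of levels depends on the gene length used, since the deposited lengths (10557 bases for CD59) exceed the longest annotated transcript (7631 bases for CD59). Per kb of the longest transcript, CD55 also went from below CD59 in PC9 at T0 (16 against 40.1) to above it with erlotinib (51.6 against 19.9) and osimertinib (55 against 29.7). In H1650 with erlotinib, CD55 was then above CD59 (39.5 against 36.2), whereas with the deposited lengths it was below it. C1S in treated PC9 cells was then above CD59 too (21.5 against 19.9 with erlotinib and 32.2 against 29.7 with osimertinib), beside SDs of 1.42 and 3.74 for CD59 in these groups.

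**Figure D3:**
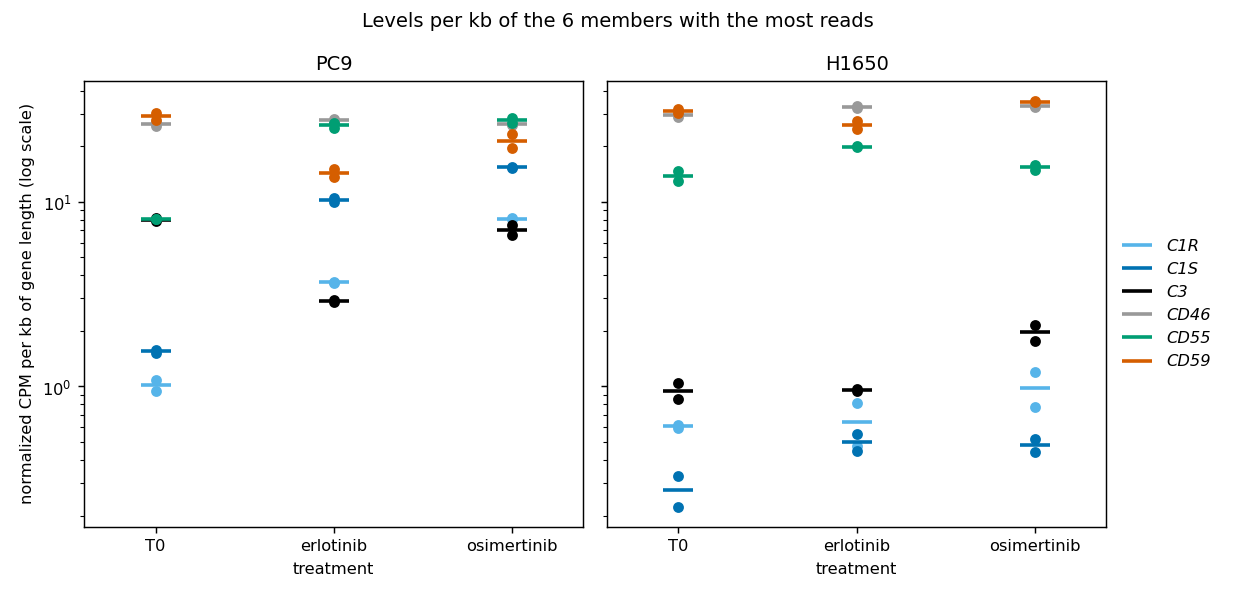
Normalized CPM per kb of gene length (log axis) of C1R, C1S, C3, CD46, CD55 and CD59 in PC9 (left) and H1650 (right), with 1 point per library and a bar at each group mean. In PC9, CD55 lies below CD59 at T0 and above it under both drugs, and C1S passes C3.

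Whether the lines responded differently was tested directly, as the log2 fold change in H1650 minus that in PC9. For erlotinib the response differed for 6 of the 9 genes, beside 40.8% of all tested genes, and for osimertinib for 7, beside 41.9%. The responses of C1R, C1S and CD55 were smaller in H1650 with both drugs. For C1S the difference was -1.88 ± 0.24 with erlotinib (edgeR adjusted p = 2.73e-07) and -2.53 ± 0.24 with osimertinib (edgeR adjusted p = 1.42e-09). For C1R it was -1.79 ± 0.28 and -2.30 ± 0.27 (edgeR adjusted p = 6.8e-06 and 4.72e-08), and for CD55 -1.16 ± 0.11 and -1.62 ± 0.11 (edgeR adjusted p = 1.26e-09 and 1.43e-12). C3 and CD59 differed in the positive direction. For C3 the difference was 1.49 ± 0.17 with erlotinib and 1.24 ± 0.16 with osimertinib (edgeR adjusted p = 5.68e-08 and 3.34e-07), and for CD59 0.77 ± 0.11 and 0.60 ± 0.11 (edgeR adjusted p = 3.45e-06 and 9.46e-05).

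Among the genes with few reads, the CFB response differed with erlotinib (-2.23 ± 0.73, edgeR adjusted p = 0.0146), a call lost without H1650 T0 replicate 2 (-1.53) or H1650 erlotinib replicate 2 (-2.04). With osimertinib the CFB difference missed the threshold (-1.49, 95% interval -2.84 to -0.14, edgeR adjusted p = 0.0719), and passed it without H1650 T0 replicate 1 (-1.88). SERPING1 differed with osimertinib (-2.15 ± 0.74, edgeR adjusted p = 0.0206), which was -4.01 without PC9 T0 replicate 1 and was lost without PC9 T0 replicate 2 (-1.35), PC9 osimertinib replicate 1 (-2.01) or H1650 osimertinib replicate 2 (-1.63), and missed the threshold with erlotinib (-1.42, 95% interval -2.99 to 0.15), passing it without PC9 T0 replicate 1 (-3.28). CFI was called for osimertinib (edgeR adjusted p = 0.00669), but the size of its difference depends on the prior count, because PC9 had no read at T0. CD46 was called for neither drug, with intervals of -0.12 to 0.28 and -0.03 to 0.36.

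**Figure D4:**
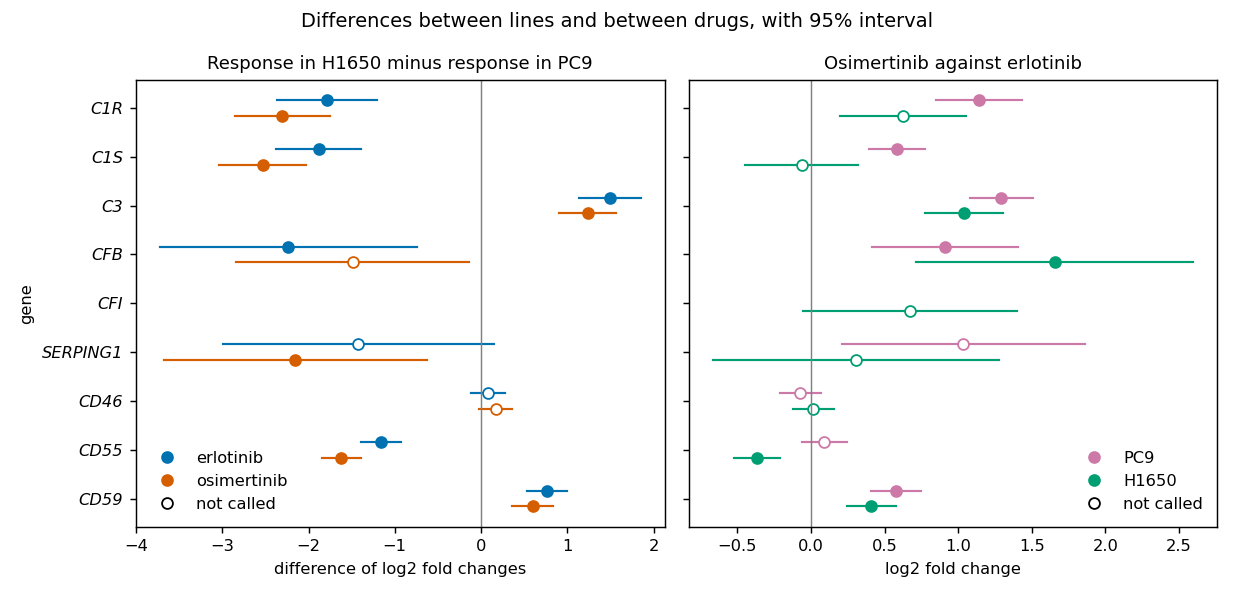
Left, the log2 fold change in H1650 minus that in PC9 for each drug, and right, the log2 fold change of osimertinib against erlotinib in each line, with 95% intervals as lines and open points for genes not called. CFI is drawn only for osimertinib against erlotinib in H1650. C1R, C1S and CD55 lie left of 0 with both drugs in the left panel, and C3 and CD59 lie right of 0.

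Osimertinib at 0.1 μM and erlotinib at 10 μM were then set against each other, at doses that differ as the study used them. In PC9, 6 of the 9 genes were higher with osimertinib and none was lower, beside 10.1% and 6.41% of all tested genes. Among them were C3 (1.29 ± 0.10, edgeR adjusted p = 3.26e-10), C1R (1.14 ± 0.14, edgeR adjusted p = 9.32e-07), C1S (0.58 ± 0.09, edgeR adjusted p = 3.63e-05) and CD59 (0.58 ± 0.08, edgeR adjusted p = 7.36e-06). CFB was higher by 0.91 ± 0.24 (edgeR adjusted p = 0.00857), a call lost with DESeq2 (0.92) and without PC9 erlotinib replicate 1 (0.80) or PC9 osimertinib replicate 1 (0.85). CFI was higher as well (2.04 ± 0.67, edgeR adjusted p = 0.0351), and that call was lost with DESeq2 and in each fit that left out 1 of the 4 treated PC9 libraries. CD55 (0.09, 95% interval -0.06 to 0.25), CD46 (-0.07, 95% interval -0.21 to 0.06) and SERPING1 (1.04, 95% interval 0.21 to 1.86) were not called, and SERPING1 passed without a filter on low counts (1.01) or without PC9 T0 replicate 2 (1.04). In H1650, C3 (1.04 ± 0.13, edgeR adjusted p = 1.92e-06), CD59 (0.41 ± 0.08, edgeR adjusted p = 0.001) and CFB (1.66 ± 0.46, edgeR adjusted p = 0.0204) were higher with osimertinib, and CD55 was lower (-0.37 ± 0.08, edgeR adjusted p = 0.00187), beside 5.02% and 3.73% of all tested genes. The CFB call in H1650 was lost in a fit of the H1650 libraries alone (1.65) and without H1650 erlotinib replicate 1 (1.84), H1650 erlotinib replicate 2 (1.49) or H1650 osimertinib replicate 1 (1.40). C1S (-0.06, 95% interval -0.45 to 0.32) and C1R (0.62, 95% interval 0.19 to 1.05) were not called there. C1R passed without a filter on low counts (0.64) and with a replicate term added to the fit (0.62). It also passed in 5 of the 12 fits that left out a library, which ran from 0.28 to 1.05.

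The lines also differed before treatment. At T0, 7 of the 9 genes were called between H1650 and PC9, beside 69.6% of all tested genes. H1650 had less C3 (log2 fold change -3.08 ± 0.12, edgeR adjusted p = 6.52e-19), C1S (-2.46 ± 0.17, edgeR adjusted p = 2.72e-13), CFB (-1.46 ± 0.52, edgeR adjusted p = 0.0144) and C1R (-0.74 ± 0.21, edgeR adjusted p = 0.00249). It had more CD55 (0.77 ± 0.08, edgeR adjusted p = 1.95e-09) and at least 8.33-fold more CFI (edgeR adjusted p = 3.92e-07). The CFI bound was computed against 3 reads in each PC9 T0 library and allows for counting error in PC9 only. CD46 was higher by 0.15 ± 0.07 (edgeR adjusted p = 0.0451), a call lost with DESeq2 (0.13), RLE normalization (0.13) or no filter (0.10) and in 10 of the 12 fits that left out a library, and the CFB call was lost without H1650 T0 replicate 1 (-1.08). CD59 (0.10, 95% interval -0.07 to 0.26) and SERPING1 (0.80, 95% interval -0.47 to 2.06) were not called, and the value of SERPING1 was set by PC9 T0, at 2.66 and called without replicate 1 and at -0.0032 without replicate 2.

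Under the drugs, the order of the lines for CD55 was turned round. CD55 was lower in H1650 than in PC9 by 0.39 ± 0.08 (log2) with erlotinib (edgeR adjusted p = 5.51e-05) and by 0.85 ± 0.08 with osimertinib (edgeR adjusted p = 1.13e-10). CD59 was higher in H1650 by 0.86 ± 0.08 and 0.70 ± 0.08 (edgeR adjusted p = 2.8e-10 and 1.52e-08). The gap in C1S widened to -4.34 ± 0.13 with erlotinib and -4.99 ± 0.13 with osimertinib (edgeR adjusted p = 2.42e-21 and 8.43e-23). In all, 8 of the 9 genes were called under erlotinib and all 9 under osimertinib, beside 72.1% and 71.6% of all tested genes. SERPING1 under osimertinib (-1.36 ± 0.42, edgeR adjusted p = 0.00527), was lost without H1650 osimertinib replicate 2 (-0.86) and was -2.11 without H1650 osimertinib replicate 1.

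Ordered by group mean, C1R, C1S and CFB were highest in PC9 with osimertinib and second in PC9 with erlotinib. For C1R, PC9 T0, H1650 osimertinib, H1650 erlotinib and H1650 T0 followed, and each of these neighbours overlapped. For C1S, H1650 erlotinib and H1650 osimertinib overlapped, and for CFB and C3, H1650 erlotinib and H1650 T0. C3 was highest in PC9 T0, followed by PC9 osimertinib and PC9 erlotinib. CFI was highest in the 3 H1650 groups, and no neighbours overlapped. For SERPING1, PC9 osimertinib was highest, and PC9 erlotinib, H1650 osimertinib and H1650 erlotinib overlapped in turn, as did H1650 T0 and PC9 T0. CD55 and CD59 had no overlapping neighbours, and CD46 had H1650 osimertinib with H1650 erlotinib and PC9 T0 with PC9 osimertinib. With 2 libraries in a group, a lack of overlap is a description and not a test, and its share over all genes is not given. In H1650 with osimertinib against T0, for example, the libraries of all 9 genes were separate but only 5 genes were called.

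Of 50 other genes of the complement system, 21 were tested and 29, among them the C1q chains, C6, C7, C9 and the receptor C3AR1, were below the filter. In PC9, 12 of the 21 rose and 4 fell with erlotinib, and 13 rose and 3 fell with osimertinib. The median log2 fold change over the 21 was 1.40 with erlotinib and 1.13 with osimertinib. In H1650, 6 rose and none fell with erlotinib, and 4 rose and 2 fell with osimertinib, with medians of 0.00 and 0.03. Of the 21, 18 had at least 1 normalized CPM in a PC9 group but only 10 in an H1650 group. The H1650 medians therefore include genes with few or no reads in that line, and do not measure a missing response of expressed genes. Both genes that fell in H1650 with osimertinib, C4BPB and ITGAM, had no read in the osimertinib libraries and at most 0.132 normalized CPM on average at T0, and they are named after their values were seen. The shares over all tested genes are those given above for each comparison.

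Among those with a mean of at least 1 normalized CPM in a group compared, the most changed were the following. COLEC10, a soluble collectin of the lectin pathway, had 3 and 4 reads in PC9 at T0, 29 and 45 with erlotinib and 23 and 27 with osimertinib (log2 fold changes 3.09 ± 0.64 and 2.83 ± 0.66). SUSD4, a membrane inhibitor of complement, fell in PC9 from 13.1 and 13.2 normalized CPM to 1.75 and 1.72 with erlotinib and to 1.85 and 1.79 with osimertinib (by 2.92 ± 0.25 and 2.85 ± 0.25). C5AR1, the receptor for C5a, rose from 1.01 and 1.28 to 8.11 and 8.04 with erlotinib in PC9 (2.81 ± 0.28), and in H1650 from 0.886 and 1.00 to 3.46 and 1.91 (1.48 ± 0.32). CFD, the protease that cleaves factor B bound to C3b, rose in PC9 with osimertinib from 4.03 and 3.06 to 21.8 and 15.8 (2.41 ± 0.19). In H1650 CFD went from 8.54 and 6.95 to 21.7 and 16.6 with erlotinib (1.31 ± 0.17) and to 22.2 and 18.8 with osimertinib (1.41 ± 0.17). C1RL, a protease related to C1R, rose in PC9 with erlotinib by 1.98 ± 0.10 and in H1650 by 1.51 ± 0.14 with erlotinib and 1.42 ± 0.14 with osimertinib. C4B rose in PC9 with osimertinib (2.52 ± 0.65), but its reads cannot be told from those of its near-identical copy C4A. In H1650, C5, the source of the terminal complex, rose with erlotinib (0.75 ± 0.16), and ITGB2, the common chain of complement receptors, and CLU, a soluble inhibitor of the membrane attack complex, rose with osimertinib (0.69 ± 0.12 and 0.46 ± 0.09). The edgeR adjusted p of these changes ran up to 0.00139, that of C4B.

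**Figure D5:**
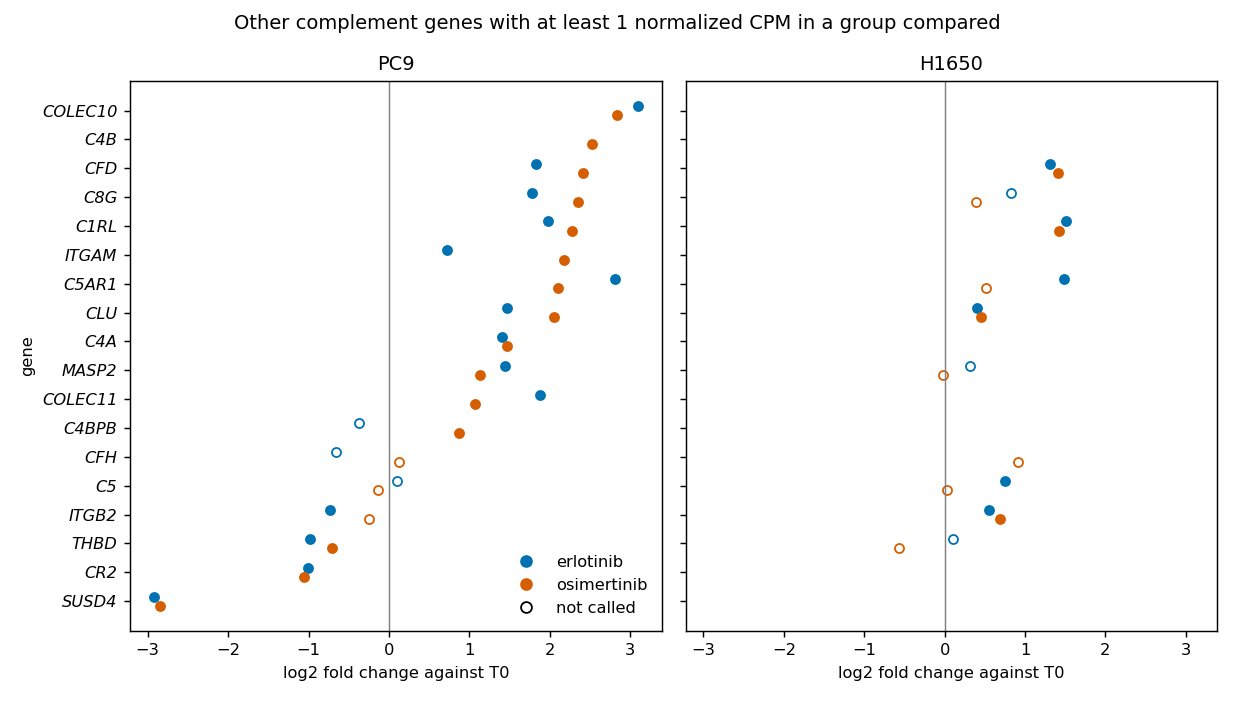
Log2 fold change against T0 (x axis) of the other complement genes (y axis, in the order of the PC9 osimertinib change) with at least 1 normalized CPM in a group compared, 18 in PC9 (left) and 10 in H1650 (right), with open points for genes not called. SUSD4 lies at -2.92 and -2.85 in PC9, and C1RL and CFD lie right of 0 in both lines.

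Genes of the cytokine and interferon pathways known to induce complement transcription were described alongside, as a list of 30 of which 25 were tested. In PC9, 14 rose and 7 fell with erlotinib and 15 rose and 7 fell with osimertinib, and in H1650, 9 rose and 7 fell with erlotinib and 11 rose and 6 fell with osimertinib. Over all tested genes, 32.7% rose and 29.1% fell in PC9 with erlotinib and 32.7% and 28.7% with osimertinib, and in H1650 18.0% and 18.5% with erlotinib and 17.8% and 17.9% with osimertinib. The cytokines TNF, IFNG, IFNB1, OSM and IL1B were below the filter. STAT2, a transcription factor of the type I interferon response, rose in PC9 from 22.4 and 21.6 normalized CPM to 102.7 and 106.1 with erlotinib and to 144.2 and 135.7 with osimertinib (2.25 ± 0.08 and 2.67 ± 0.09). In H1650 STAT2 rose with erlotinib as well (0.99 ± 0.07). IRF1, a transcription factor that interferons induce, rose in PC9 with both drugs (1.87 ± 0.12 and 2.22 ± 0.11) and in H1650 with osimertinib (1.18 ± 0.10). CEBPD, an acute-phase transcription factor, rose in PC9 with osimertinib (2.16 ± 0.16), and LIF, a cytokine of the IL-6 family, fell with erlotinib by 1.76 ± 0.13. IL6 itself fell in H1650, by 1.08 ± 0.11 with erlotinib and 1.10 ± 0.11 with osimertinib, and NFKBIA, a target and inhibitor of NF-kappaB, rose there (0.87 ± 0.09 and 1.09 ± 0.08). All of these passed edgeR's test, and none was tested as a cause of the complement changes.

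The 12 libraries were searched for the genes whose levels followed each abundant member most closely, among 10288 genes with a mean of at least 10 normalized CPM. The Pearson correlation of log2(normalized CPM + 0.5) is given as a description, since the libraries fall into 6 groups and share lines and treatments. C1S was most like RNMT (0.996) and NEDD9 (0.996), C1R was most like NOL4L and MARCKS (0.983 for both), and C3 was most like TSPAN1 (0.984) and TFG (0.980). CD55 was most like TBC1D9 (0.986) and LZTS3 (0.985), CD46 was most like TRIM69 (0.973) and SDC3 (0.971), and CD59 was most like PDIA3 (0.970) and TBK1 (0.961).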

How the data were processed

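RNA-seq counts of 12 libraries were analysed. Per the study's methods, the authors processed reads in the DolphinNext pipeline, the deposited table is named for featureCounts, and it holds raw whole-number counts per gene with a gene length in bases. The submitters' processing notes name GRCh38 and DESeq2. The aligner, annotation and strandedness are not given in the sources used here. Counts were fitted in R 4.3.3 with edgeR 4.0.16 (TMM, filterByExpr by group, quasi-likelihood model of 6 groups without further terms, 6 residual degrees of freedom), and Benjamini-Hochberg adjustment ran over 19108 genes. SE is the size of the log2 fold change divided by the square root of F, and 95% intervals use the total degrees of freedom. Replicates of each group differed beyond sampling noise, so none was merged. Tests were checked on simulated counts, with few genes changed in a single group and the same means in both lines. Far more genes differ in these data, so the check does not cover the normalization. DESeq2 1.42.0, other normalizations, filters, fits per line, a replicate term and fits without 1 library were alternatives. Gene positions are from GENCODE 29 and promoters from RefSeq.

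The members, gene lists and tests were chosen with earlier results of these data known. All 9 members were named in every comparison. Named besides were, per drug comparison, at most 4 other complement genes with the largest log2 fold change among those called with at least 1 normalized CPM in a group, at most 3 inducers by the same rule with at least 10, and the 2 genes most correlated with each member of at least 5 on average.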

Additional observations from a re-analysis of the deposited data

Results flagged for a closer look

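The change after a drug differed between the lines, by the interaction test of edgeR, for these genes, given as the log2 fold change in H1650 minus that in PC9. With erlotinib the values were 1.49 for C3, -2.23 for CFB, -1.79 for C1R, -1.88 for C1S, -1.16 for CD55 and 0.77 for CD59. With osimertinib they were 1.24 for C3, -2.30 for C1R, -2.53 for C1S, -1.62 for CD55, 0.60 for CD59 and -2.15 for SERPING1. The fitted value for CFI with osimertinib was -5.30, which depends on the prior count, because CFI had no read in PC9 at T0. The difference of CFB and that of SERPING1 each rest on single libraries, as given in the report. With 2 libraries in a group, no single sample could be tested as standing apart from its group.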

How the results depend on the processing

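Of 2096 values under the alternatives, 1995 kept their direction and their side of the threshold or, for counts, stayed within 1.5 times of the reported value. A minimum of 10 counts in each library left out CFB, CFI and SERPING1 and gave 5 members called in PC9 with erlotinib and 4 with osimertinib (from 8 and 7), and 9 and 8 other complement genes (from 16 in each). The shares of all genes called under this minimum are not given. Directions turned for changes that were not called: C3 in H1650 with erlotinib under DESeq2 (-0.0015), CD46 in PC9 with osimertinib under upper quartile normalization (0.061) and with the 10-count minimum (0.037), and the CD46 erlotinib response difference under upper quartile normalization (-0.0011). Upper quartile normalization put the median log2 fold change of all genes in PC9 with erlotinib at 0.17, against 0.07.

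Without 1 library at a time, CD46 in PC9 with osimertinib ran from -0.053 to 0.022, C3 in H1650 with erlotinib from -0.12 to 0.16, C1R in H1650 with erlotinib from -0.36 to 0.40, and SERPING1 between the lines at T0 from -0.0032 to 2.66. For osimertinib against erlotinib in H1650, C1S ran from -0.21 to 0.11 and SERPING1 from -0.44 to 0.81. The members called in H1650 with osimertinib ran from 3 (without H1650 T0 replicate 2) to 5. The share of all tested genes called in these fits is not given, and the cause of these changes was not tested.

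Levels per kb at T0 moved with the longest transcript as length for 17 of 18 values. Replicate numbers of the groups carry no label of a shared batch, and the correlation of their deviations ran from 0.0021 to 0.45 over 10294 genes. With a replicate block, 8 and 7 members were called in PC9 with erlotinib and osimertinib, as without it, and 4 and 7 in H1650 (3 and 5 without it), where CD46 was added with both drugs and CD59 with osimertinib. For osimertinib against erlotinib in H1650, 5 members were called with the replicate block and 4 without it, with C1R added (0.62). The shares of all tested genes called with the block are not given, so these counts do not show a gain particular to the members. Few reads at T0 limit CFI in PC9, CFB in both lines and SERPING1 in PC9.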
